A study of Mus musculus with 6 samples.

Results

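The genes described here are Meis1, Meis2, Meis3, Pbx2, Pbx3 and Hoxb13, 6 of the 22180 genes tested on the arrays. They were taken by name, as transcription factors known from the exit of heart muscle cells from the cell cycle after birth. No measured value entered that rule, but earlier results of these data were known when the genes were chosen. Each of the 6 had a single probe with its own gene symbol. Expression was measured on 6 Affymetrix arrays in mouse hearts (strain Mixed C57BL/6 x 129S6). In the 3 control samples the mice carried Nkx2.5-Cre alone, a Cre recombinase active in cardiac progenitors and their descendants. The other 3 samples, called transgenic here, came from mice with Nkx2.5-Cre and R26R-miR302-367, in which Cre switches on the miR-302 and miR-367 cluster from the Rosa26 locus. Cre is thus present in both groups, and cells outside the reach of Nkx2.5-Cre keep their normal microRNAs. The labels conflict on age, since the source name and harvest protocol give postnatal day 14 and the age field gives E14. They do not say whether each sample was 1 animal or a pool, so the p-values below reflect only how these samples spread, in part perhaps for technical reasons.

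Meis and Pbx proteins belong to the TALE class of homeodomain factors, named for a loop extension of amino acids within the DNA-binding domain. They bind DNA as partners of each other and of Hox proteins. In mouse, loss of Meis1 in heart muscle cells prolongs their division after birth, and its overexpression in the neonatal heart reduces division. Hoxb13 acts with Meis1 in this setting, is a substrate of the phosphatase calcineurin, and the pair is reported to activate genes of CDK inhibitors. The series set out to follow how the microRNA cluster affects division and differentiation of cardiomyocytes, and the comparison below asks how these exit factors stood in hearts that overexpress it.

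The agent itself is shown first, because every comparison below is between hearts with and without its overexpression. The mature sequences are those of RefSeq for GRCm38.p6, written 5′ to 3′ with the seed, bases 2 to 8, in capitals.
mmu-miR-302b-3p: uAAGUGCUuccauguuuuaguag
mmu-miR-302c-3p: aAGUGCUUccauguuucagugg
mmu-miR-302d-3p: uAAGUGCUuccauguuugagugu
mmu-miR-367-3p: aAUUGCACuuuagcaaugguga
The entries for miR-302b and miR-302d share a seed. The miR-302c entry starts a base later, which shifts its seed, and miR-367 has a seed of its own. The cluster also holds miR-302a, for which the matching sequence was not at hand. The probes of all 5 microRNA genes were separated between the groups, all transgenic values above all control values, with log2 fold changes from 2.99 for Mir302b to 6.61 for Mir302c.

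Among the 6 genes, Meis1 was the only one that rose, and none fell. Meis1, the factor best known for ending cardiomyocyte division, read 8.40, 8.47 and 8.36 on the log2 scale in the control hearts and 9.04, 8.89 and 8.705 in the transgenic hearts. All transgenic values lay above all control values, with a gap of 0.239 between the nearest arrays, and the transgenic hearts spread more widely. The means were 8.41 ± 0.056 and 8.88 ± 0.17 (SD, n = 3 each), and the log2 fold change was 0.47 ± 0.10 (SE, limma adjusted p = 0.02237). On the linear scale this is a 1.39-fold difference, with a 95% interval from 1.18-fold to 1.63-fold. Over all genes 11.1% were called at an adjusted p of 0.05 in either direction, 5.35% higher and 5.76% lower, so 1 called gene among 6 is near the background share and is not a result about the group. In whole hearts, a change in the number of cells of a type and a change in RNA per cell cannot be told apart.

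That split of higher and lower calls rests on the scaling, with 48.2% of called genes higher as deposited, 36.4% after repeated quantile normalization and 38.1% with arrays centred on their medians. The Meis1 call depended on single arrays. It was lost without control 1 (adjusted p = 0.07024), without transgenic 1 (0.08309) and without transgenic 2 (0.08167), while the log2 fold change stayed between 0.39 and 0.56 in all of these and the other 3 fits that left out an array. In the fits that changed the processing and kept all arrays, the adjusted p ranged up to 0.03527, with arrays centred on their medians.

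**Figure D1:**
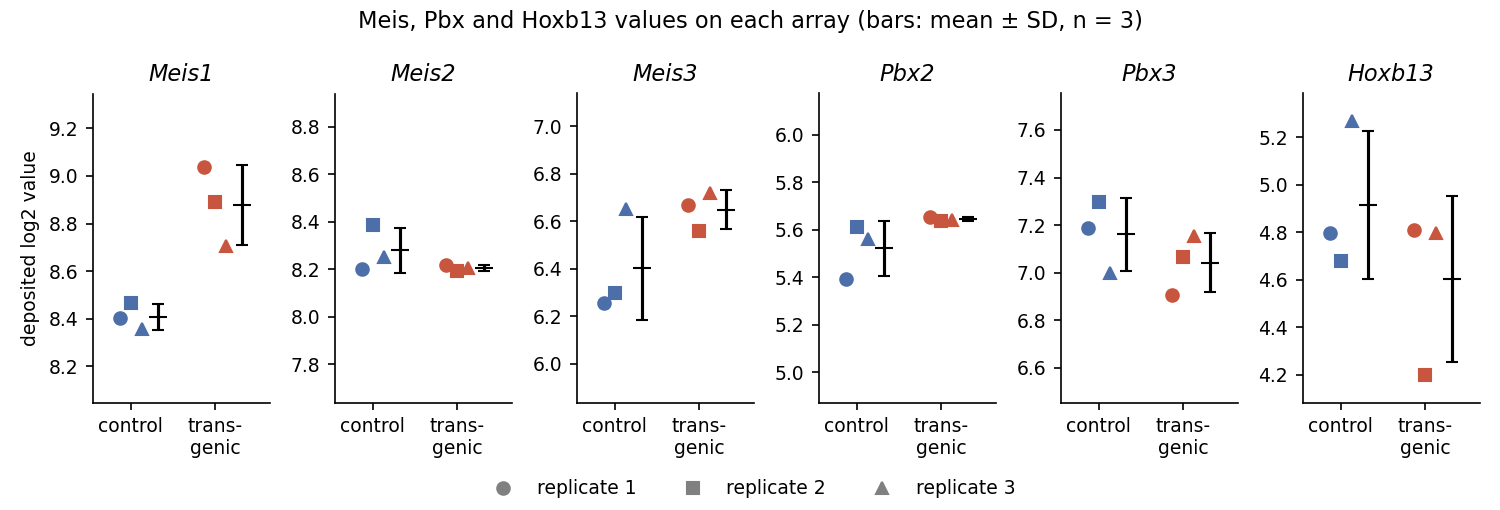
Deposited log2 values of the 6 genes on each array, with controls in blue, transgenic hearts in red, marker shapes for the replicate numbers and bars for mean ± SD (n = 3); every panel spans the same range of log2 units. The Meis1 groups are separated by 0.239, the Pbx2 groups by 0.0259, and the groups of the other 4 genes overlap.

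Meis2, a Meis1 paralog needed for cardiac outflow tract and neural crest development in mouse, read 8.20, 8.38 and 8.25 in the controls and 8.22, 8.19 and 8.205 in the transgenic hearts. The groups overlapped, and the transgenic values were close together, with an SD of 0.012 (n = 3). The log2 fold change was -0.07 with a 95% interval from -0.27 to 0.12 (adjusted p = 0.6601). That interval leaves room for a level up to 1.21-fold lower or 1.09-fold higher.

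Meis3, the paralog studied mainly in hindbrain and pancreatic beta cells, read 6.26, 6.30 and 6.65 in the controls and 6.67, 6.56 and 6.72 in the transgenic hearts. Control 3 stood with the transgenic hearts and above the lowest of them, while the other controls lay below all transgenic values. The log2 fold change was 0.25 with a 95% interval from -0.02 to 0.52 (adjusted p = 0.2394). Without control 3 it was 0.37, and Meis3 then passed the test (adjusted p = 0.04384).

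The Pbx genes encode the usual partners of Meis proteins on DNA. Pbx2 read 5.39, 5.61 and 5.56 in the controls and 5.65, 5.64 and 5.64 in the transgenic hearts. The groups did not overlap, but only 0.0259 separated them. The log2 fold change was 0.12 with a 95% interval from -0.08 to 0.33 (adjusted p = 0.4495). Groups that do not overlap were found for 2 of the 6 genes, Meis1 and Pbx2, both higher, and for 30.9% of all genes in either direction, 14.2% higher and 16.7% lower.

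Pbx3 read 7.19, 7.30 and 6.997 in the controls and 6.91, 7.07 and 7.15 in the transgenic hearts. The groups overlapped over most of their range. The log2 fold change was -0.12 with a 95% interval from -0.37 to 0.13 (adjusted p = 0.5574), which leaves room for a level up to 1.29-fold lower.

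Hoxb13, the Hox partner of Meis1 in the postnatal heart, read 4.80, 4.68 and 5.27 in the controls and 4.81, 4.20 and 4.797 in the transgenic hearts. Control 3 was the highest and transgenic 2 the lowest, and the remaining 4 arrays lay close together across both groups. The log2 fold change was -0.31 with the widest 95% interval of the 6 genes, from -0.76 to 0.14 (adjusted p = 0.3788). A level up to 1.70-fold lower or 1.10-fold higher is compatible with these arrays. The Hoxb13 probe had a mean at the 28.0 percentile of all genes tested, and without detection calls its distance from background is unknown. The probe of Meis1 lay at the 88.6 percentile, that of Meis2 at the 84.1, Pbx3 at the 67.3, Meis3 at the 58.2 and Pbx2 at the 43.2. These places describe probes on the array scale and do not rank the genes by transcript number.

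**Figure D2:**
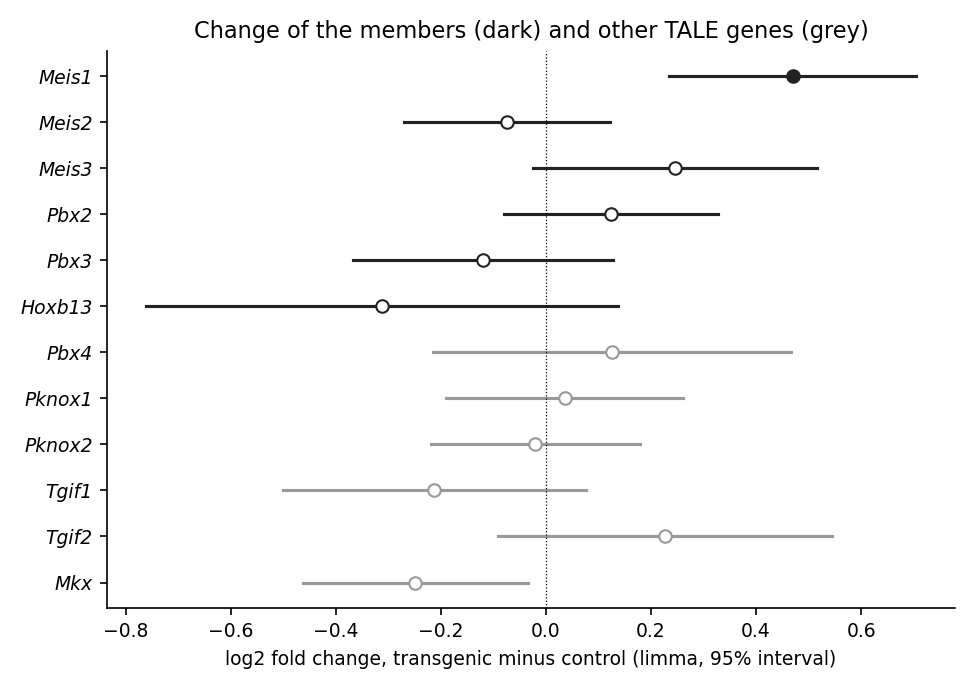
Log2 fold change, transgenic minus control, with its 95% limma interval for the 6 genes (dark) and 6 other TALE genes (grey); filled points passed an adjusted p of 0.05. Only the Meis1 point is filled, at 0.47, and its interval starts at 0.23, while that of Hoxb13 is the widest.

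Across the 6 genes 3 fold changes were positive and 3 negative, and their median was 0.02, beside a median of -0.03 for all genes. The median size of change without regard to sign was 0.19 for the 6 genes and 0.14 for all genes. Meis1 lay at the 96.0 percentile of signed log2 fold changes over all genes, and Hoxb13 at the 9.20 percentile.

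**Figure D3:**
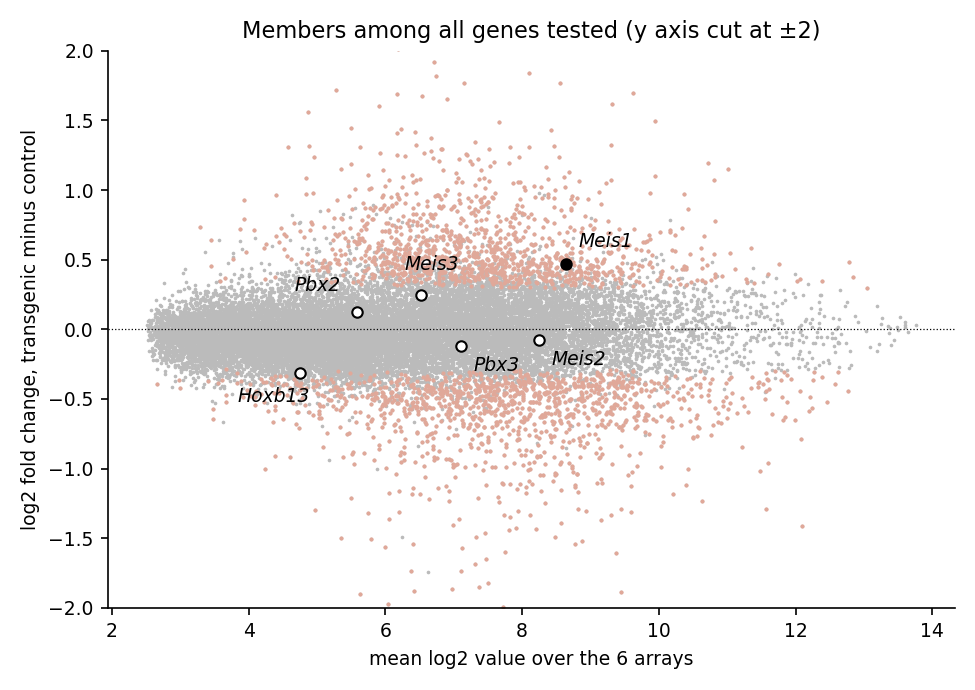
Mean log2 value over the 6 arrays (x axis) against the log2 fold change, transgenic minus control (y axis, shown from -2 to 2), for all genes tested, with called genes in pink and the 6 genes as labelled circles. Meis1 lies among the called genes at 0.47, and the other 5 lie within the grey band of genes that were not called.

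Whether the genes changed unequally was asked from their difference within each array, for all 15 pairs. The difference between Meis1 and Meis2 grew from 0.13 in the controls to 0.67 in the transgenic hearts, by 0.54 on the log2 scale. The difference between Meis1 and Pbx3 grew by 0.59, and that between Meis1 and Hoxb13 by 0.78. In 6 of the 15 pairs, 4 of which include Meis1, the groups did not overlap. Each of these had a two-sided exact permutation p of 0.1, the smallest that 3 arrays against 3 allow, and an adjusted p of 0.25 over the 15 pairs. This test could therefore not pass a threshold of 0.05 for any pair.

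The other TALE genes outside the Iroquois group did not pass the test. Of 6 measured, 0 were called by limma and 1, Mkx, had an unadjusted p under 0.05, as did 25.4% of all genes, 3 values were positive and 3 negative, and the median log2 fold change was 0.01. Mkx, a tendon regulator, had -0.25 (adjusted p = 0.1354) and its transgenic values all lay below the control values. Tgif1 and Tgif2, repressors that act with Smad proteins, had -0.21 (0.3491) and 0.23 (0.3668). Pbx4 had 0.13, Pknox1 0.04 and Pknox2 -0.02, with adjusted p-values from 0.6683 to 0.9214, and the signs of these last 3 turned in some alternatives.

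The Hox genes, whose proteins bind DNA with Meis and Pbx partners, were mostly dim on these arrays, with a median at the 29.7 percentile of all genes. Of 35 measured besides Hoxb13, 2 fell and 0 rose, a share of 5.71% called against 11.1% of all genes. Hoxb2 fell by 0.38 (adjusted p = 0.02804) and Hoxa7 fell by 0.39 (adjusted p = 0.03568). Both calls were lost without control 1 (adjusted p = 0.05626 for Hoxb2 and 0.07459 for Hoxa7), control 2 (0.07536 and 0.08906), transgenic 1 (0.09217 and 0.1126), transgenic 2 (0.08123 and 0.1265) or transgenic 3 (0.08711 and 0.06426), and with the replicate number as a block (0.05011 and 0.06895). Hoxc9 had -0.31 (adjusted p = 0.09627), and passed with array weights (0.03253) or without control 3 (0.02858), and Hoxa10 had -0.23 (adjusted p = 0.1409). In all, 30 of the 35 values were negative with a median of -0.15, where 56.7% of all genes had negative values.

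Pbxip1 encodes a protein that binds Pbx factors and blocks their contact with DNA. It read 7.30, 7.33 and 7.20 in the controls and 7.56, 7.53 and 7.65 in the transgenic hearts. The groups did not overlap, and the log2 fold change of 0.30 (SE 0.086) missed the threshold (adjusted p = 0.05914). It passed with the dimmest genes left out (adjusted p = 0.03457), with an intensity trend (0.04134) and with array weights (0.04889).

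Calcineurin, which dephosphorylates Hoxb13, was followed through its subunits and its feedback inhibitors. The catalytic subunits Ppp3ca, Ppp3cb and Ppp3cc had log2 fold changes of -0.04, -0.12 and -0.15, and the testis-type regulatory subunit Ppp3r2 had -0.06, with adjusted p-values from 0.3823 to 0.8104. Ppp3r1 was not analysed here. Rcan1, a calcineurin inhibitor whose own transcription responds to calcineurin, read 9.76, 9.37 and 9.63 in the controls and 9.08, 8.86 and 9.07 in the transgenic hearts. All transgenic values lay below the controls, and Rcan1 fell by 0.58 (SE 0.12, adjusted p = 0.01716). Rcan1 missed the threshold without control 1 (0.06194) or transgenic 2 (0.07337). Its relative Rcan2 fell by 0.32 (adjusted p = 0.04182), a call that was lost in each of the 6 fits that left out an array, at 0.1032, 0.1009 and 0.05751 without controls 1, 2 and 3 and at 0.1346, 0.1413 and 0.06629 without transgenic 1, 2 and 3. It was also lost with the replicate number as a block (0.08367).

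The CDK inhibitors reported as activated by Meis1 in mouse heart are Cdkn1a, Cdkn2a and Cdkn2b, which restrain entry into DNA synthesis. Cdkn1a, encoding p21, read 9.32, 9.25 and 9.23 in the controls and 8.19, 7.33 and 8.11 in the transgenic hearts. Every transgenic value was lower than every control value by more than the spread within either group. Cdkn1a fell by 1.39 (SE 0.20, adjusted p = 0.00376) while Meis1 was higher. Whether this fall came through Meis1, the overexpressed microRNAs or another route was not tested. Cdkn2a read 6.18, 6.04 and 6.38 in the controls and 6.43, 6.00 and 6.44 in the transgenic hearts, with overlapping groups and a value of 0.09 (adjusted p = 0.754). Cdkn2b, encoding p15, had -0.20 (95% interval -0.46 to 0.06, adjusted p = 0.3311).

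Among the inhibitors without that report, Cdkn2c had 0.28 (adjusted p = 0.1302), Cdkn1b -0.13 (0.5776), Cdkn1c -0.09 (0.5891) and Cdkn2d -0.06 (0.7771). Of the 7 inhibitors 1 fell and 0 rose, a share of 14.3% called beside 11.1% of all genes, with a median of -0.09.

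The promoters of these genes were searched for TGACAG, the core sequence that Meis proteins bind, on both strands from 250 bases before to 50 after each annotated start. RefSeq promoters (GRCm38.p6) were at hand for 6 of the 7 CDK inhibitors, at 9 starts, and 2 of the 9 held the motif, beside 19.2% of all 32851 promoters in the table. The matches lay in a promoter of Cdkn2a and a promoter of Cdkn2c, the inhibitors with the motif in reach of the start. They are shown with their surroundings, the motif or its reverse complement in capitals.
Cdkn2a, chr4:89294824-89294853, minus strand, 222 bases before the start: ccgcggcgctggCTGTCAccgcgatgggtg
Cdkn2c, chr4:109665475-109665504, minus strand, 120 bases before the start: agcttaggtacgTGACAGctctgcctacat
Neither gene passed the test. The motif was not among the letters of the 2 Cdkn1a promoter windows, nor in those of the 4 promoters found for the 6 genes themselves. In the list of Pbxip1 and calcineurin genes 2 of 9 promoters held the motif, in Rcan2, which fell by 0.32, and in Ppp3r1, which was not analysed here. Of the 3 promoters found for the other reported targets described below, 0 held it. A match or its absence in these windows describes sequence and not binding.

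Other genes reported downstream of Meis1 come from blood cells of the mouse. Epas1, encoding the hypoxia-inducible factor HIF-2 alpha, read 9.52, 9.64 and 9.44 in the controls and 8.97, 8.88 and 8.92 in the transgenic hearts. The groups did not overlap, and Epas1 fell by 0.61 (SE 0.088, adjusted p = 0.003784). Hif1a, encoding HIF-1 alpha, read 9.30, 9.29 and 9.28 in the controls and 9.51, 9.55 and 9.55 in the transgenic hearts, with tight groups that did not overlap.

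The Hif1a log2 fold change of 0.25 missed the threshold (adjusted p = 0.0778), and passed it with the dimmest genes left out (0.04318) or with an intensity trend (0.01972). A second, dimmer Hif1a probe had 0.11 (adjusted p = 0.6573 over all probes). Pf4, a platelet chemokine, had -0.34 (adjusted p = 0.08861), and passed with quantile normalization repeated (0.03448), with array weights (0.03425) or without control 3 (0.03707). Flt3, a receptor of blood progenitors, had -0.44 (adjusted p = 0.1112). Of these 4 genes 1 fell and 0 rose, a share of 25% called beside 11.1% of all genes. A single call sets that share, and the median of the 4 log2 fold changes was -0.39.

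Cell cycle genes were higher in the same hearts in which Meis1 was higher. Of 25 measured genes 15 rose and 0 fell, a share of 60% called beside 11.1% of all genes. Their median log2 fold change was 0.47. Mki67, a marker of dividing cells, read 6.85, 7.01 and 6.87 in the controls and 7.74, 7.69 and 7.75 in the transgenic hearts, a difference of 0.82 (adjusted p = 0.000901). Birc5, encoding survivin, rose by 1.01, Ccnb2, a mitotic cyclin, by 0.83 and Top2a, which untangles replicated DNA, by 0.72, with adjusted p-values up to 0.00256 for Top2a. The count of genes that rose was 7 without transgenic 1, 8 without transgenic 3 and 9 without control 1, and 10 or more in the other alternatives, 3 of which also called Cdk6 lower (named after its values were seen), with medians from 0.41 to 0.52.

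**Figure D4:**
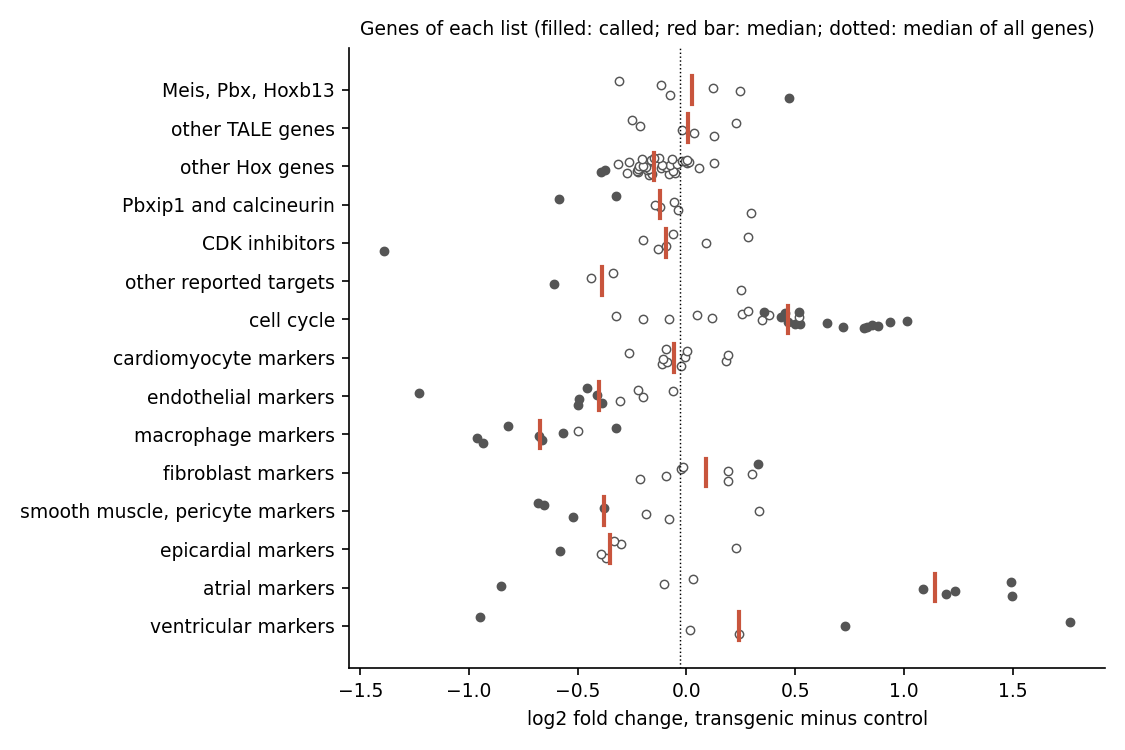
Log2 fold change, transgenic minus control, of every measured gene in each list shown. The lymphoid, neural and Schwann cell, and erythroid markers are not plotted. Filled points passed an adjusted p of 0.05, red bars are list medians and the dotted line is the median of all genes, -0.03. The 6 Meis, Pbx and Hoxb13 genes lie on both sides of that line with a median of 0.02, while most cell cycle genes lie to its right with a median of 0.47.

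Markers of cell types also moved between the groups. Their part in the difference of Meis1, or of the other genes described above, Epas1, Pf4 and Flt3 included, was not tested. Counts of called markers stand beside 11.1% of all genes called, 5.35% higher and 5.76% lower. The 10 cardiomyocyte markers, which include Tnnt2 and Myh6, stood at a median of the 99.8 percentile of all genes. By limma 0 of 10 were called, with a median of -0.06, and 1, Actn2 (-0.26, adjusted p = 0.1011), had an unadjusted p under 0.05. Their summed log2 values ran from 125.9 to 126.8 in the controls and from 125.8 to 126.1 in the transgenic hearts. Of 8 atrial markers 5 rose and 1 fell, a share of 75% called, with a median of 1.14. Their summed log2 values ran from 58.8 to 62.3 in the controls and from 64.8 to 67.1 in the transgenic hearts. Dkk3 rose by 1.49, Myl4, the atrial myosin light chain, rose by 1.09, and Kcna5, a potassium channel, fell by 0.85. The atrial count was 3 without transgenic 2. Of 5 ventricular markers 2 rose and 1 fell, a share of 60% called, with sums from 47.8 to 48.5 and from 49.7 to 50.7.

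Of 10 endothelial markers 6 fell and 0 rose, a share of 60% called, with a median of -0.40. Their summed log2 values ran from 90.5 to 91.9 in the controls and from 86.3 to 87.9 in the transgenic hearts. Without control 1, transgenic 1 or transgenic 2 the endothelial count was 2, and without control 2 or transgenic 3 it was 4. Of 8 macrophage markers 7 fell, a share of 87.5% called, with a median of -0.67. Their sums ran from 56.5 to 57.4 in the controls and from 50.5 to 52.0 in the transgenic hearts. Without control 1 or transgenic 1 the macrophage count was 5, and with each of the other arrays left out in turn it was 6. Of 7 smooth muscle and pericyte markers 4 fell, a share of 57.1% called, and 2 fell without transgenic 1 or transgenic 3. Their sums ran from 65.2 to 65.8 in the controls and from 62.4 to 63.9 in the transgenic hearts.

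Of 8 fibroblast markers 1 rose, a share of 12.5% called, with sums from 75.0 to 76.6 and from 76.0 to 76.8. That fibroblast call, of Postn, was lost in each of the 6 fits that left out an array, with repeated quantile normalization (adjusted p = 0.06157), with centred arrays (0.07849) and with the replicate block (0.0765). Of 6 epicardial markers 1 fell, a share of 16.7% called, and of 5 neural and Schwann cell markers 2 fell, a share of 40%. Of 7 lymphoid markers and 1 erythroid marker 0 were called by limma, with 1 lymphoid and 0 erythroid markers at an unadjusted p under 0.05. The epicardial call, of Msln, was lost in each of the 6 fits that left out an array, and 1 neural marker was called without control 1 or any transgenic array. The lowest log2 value of any probe was 2.06, so no marker is listed at 0.

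Among 17372 genes compared by a root mean square difference of centred log2 values over the 6 arrays, the pattern most like that of Meis1 was that of Tardbp, an RNA-binding protein, at 0.0228. Gnptab, an enzyme of lysosomal targeting, followed at 0.0267 and Pabpn1, a nuclear poly(A)-binding protein, at 0.0306. In all 244 genes lay within 0.1 of Meis1.

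**Figure D5:**
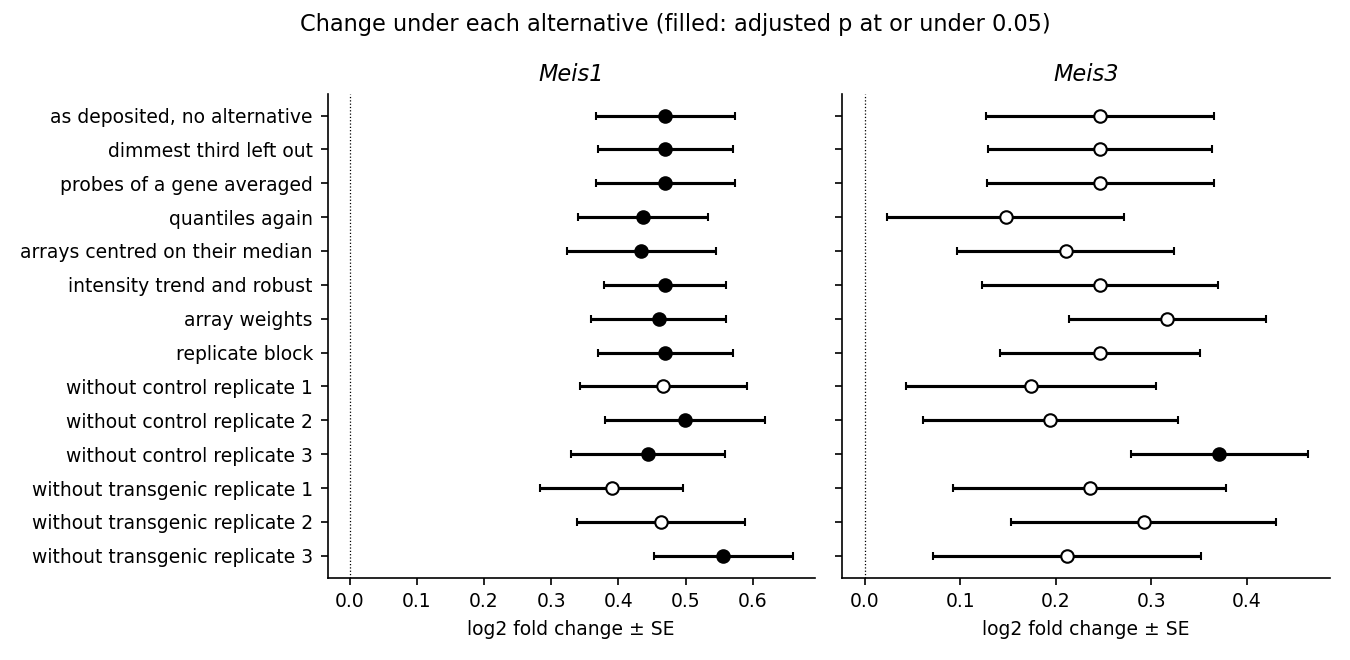
Log2 fold change ± SE of Meis1 and Meis3 as deposited and under each alternative, with filled points at an adjusted p of 0.05 or less. Meis1 stays between 0.39 and 0.56 and loses its call in 3 of the fits without an array, and Meis3 passes only without control 3, at 0.37.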

How the data were processed

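Each probe has a deposited log2 value per array. Oligo, RMA and limma were used according to the submitters' processing notes. How background was corrected is not given in the sources used here. Array medians ran from 5.45 to 5.54, and 0 arrays were identical. Labelling started from 100 ng of total RNA per the labels' protocols. No scan dates or detection calls were used. Precision is limited by the number of arrays.

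Of 41345 probes, 23521 had 1 gene symbol in the platform annotation, 1814 several and 16010 none. Probes with 1 symbol were kept, and the probe with the highest mean over the 6 arrays stood for a gene, which gave 22180 genes. Gene identifiers of 21994 were found in the RefSeq table of GRCm38.p6.

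The fit used limma 3.58.1 (R 4.3.3) with lmFit, eBayes and no covariates, leaving 4 residual degrees of freedom, with Benjamini-Hochberg adjustment over all genes and a threshold of 0.05. The steps were tested on simulated data. Pairs of genes were compared by exact permutation over arrays.

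The 6 genes and the companion lists were chosen with earlier results of these data known. Lists are described by counts and medians, with no test of the list. Genes of the TALE, calcineurin, CDK inhibitor and reported target lists were named in any case, up to 4 per other list by smallest p, and 3 genes by likeness to each called member. Replicate numbers in the titles are not stated to pair the arrays, and were not used as pairs in the main fit.

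Other settings dropped the dimmest genes (a share of 0.333), averaged probes, normalized by quantiles again, centred arrays on their medians, used an intensity trend with robust estimation, array weights or a replicate block, and left out each array in turn.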

Additional observations from a re-analysis of the deposited data

How the results depend on the processing

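With arrays left out in turn, the Meis1 log2 fold change ran from 0.39 to 0.56 and the Meis3 value from 0.17 to 0.37, the number of the 6 genes called from 0 to 2, and the number of all genes called from 1171 to 2249. The lowest counts over all genes came without transgenic 2 (1171), transgenic 1 (1217) and control 1 (1378), followed by transgenic 3 (1553), against 2465 with all arrays. Meis1 lost its call in 3 of these 6 fits and Meis3 gained one in 1, and fewer samples alone make the test stricter. Signs of all 6 genes held in every alternative run, and Meis2, Pbx2, Pbx3 and Hoxb13 were called in none (Hoxb13 is among the dimmest genes and had no value when these were left out). Same-numbered arrays of the groups had correlations of deviations of 0.0163, -0.13 and 0.0138, and 0 of 3 matched best with their own number. With 3 arrays per group these values cannot show whether the arrays were paired, and the labels state no pairing. The fit with the replicate block called 1996 genes and kept Meis1 (adjusted p = 0.03207). Among called genes 48.2% were higher in the fit of deposited values, 36.4% after repeated quantile normalization and 38.1% with centred arrays.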
